A study of Mus musculus with 24 samples.

Results

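Gene expression in pancreatic islets was compared between BLKS mice on a high-fat diet and BLKS mice on chow, using 8 of the 24 arrays of the series. The arrays were chosen by sample title alone, 4 of the high-fat BLKS group and 4 of the chow BLKS group, with 1 mouse on each array. The high-fat group held 4 male C57BLKs/J mice whose diet gave 42% of kcal as fat. The chow group held 4 male C57BLKs/J mice whose diet gave 18% of kcal as fat. All entered at an age of 8 weeks, and the sample labels give 12 weeks of feeding where the series design text gives 16. Values of 3 other groups are set beside these where a result calls for them. They are 4 C57BL6/J (BL6) males on the same high-fat diet, 4 BL6 males on chow, and 4 BLKS males on the high-fat diet with pioglitazone, a PPAR-gamma agonist, at 140 mg per kg diet. Islets were isolated from collagenase-perfused pancreas, and the labels name no sort of cells and no time of day. Each array therefore measured RNA of all cells in the preparation, and fewer cells of a type and less RNA per cell cannot be told apart.

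Islets are small clusters of endocrine cells in which beta cells secrete insulin, alpha cells glucagon and delta cells somatostatin. A diet rich in fat raises the demand for insulin, and islets meet it through secretion, protein synthesis and, in mice, beta cell growth. C57BLKs/J is an inbred strain related to C57BL6/J and is known as the background on which leptin receptor mutations cause severe diabetes. Islet cells also hold a circadian clock, in which the factors ARNTL (BMAL1) and CLOCK drive their own repressors, and which takes part in the timing of insulin release.

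Values are log2 processed intensities relative to the 75th percentile of their own array, so 0 is that percentile, and levels are compared within a probe and not between probes. Across the 24 arrays the 75th percentile lay between 217.9 and 403.3 intensity units. Correlations over all genes were 0.964 to 0.991 within the high-fat BLKS group and 0.977 to 0.988 within chow. Between the groups they were 0.957 to 0.991, and the first 3 principal components of the 8 arrays held 40.96%, 22.04% and 10.8% of the variance. The defining islet hormones were bright on all 8 arrays. Ins1, an insulin gene, was at 10.12, 10.05, 9.65 and 9.67 in high-fat islets, against 10.28, 9.86, 9.74 and 9.72 in chow islets.

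Markers of other cells differed between single arrays. The mean of 31 acinar markers, genes of the enzyme-secreting exocrine pancreas, was 4.32, 3.44, 6.19 and 3.31 in high-fat mice 1 to 4, against -3.37, 5.07, 1.54 and 3.96 in chow mice 1 to 4. Chow mouse 1 was thus far below the other 7 arrays and high-fat mouse 3 was highest, and the groups overlapped. The mean of 25 lymphocyte markers was -3.28, -3.35, 1.24 and -2.52 in high-fat islets, against -3.06, -0.76, -3.08 and -1.55 in chow islets, so high-fat mouse 3 stood apart there too. Each acinar and lymphocyte marker was well above background on at least 1 array of each group. The 4 high-fat arrays shared a slide with the BLKS pioglitazone arrays, chow mice 1, 2 and 4 lay on another slide and chow mouse 3 on a further one, scanned on a different day. No slide held both BLKS diets, so diet and slide cannot be told apart in BLKS islets. The BL6 arrays on chow and on the high-fat diet all shared a slide.

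In the limma fit, 18 of 22968 genes passed an adjusted p of 0.05, which is 0.0784% of the genes tested. Of these, 4 rose on the high-fat diet (0.0174%) and 14 fell (0.0610%). The leading gene was Arntl, the transcription factor at the centre of the circadian clock, which fell to 0.528 of its chow level. Nfil3, a clock-controlled repressor, fell with it, and so did Emid1, Dkk2, Ak5, Scml4, Hdac8, Tnik and Aox1. Hpgds, which makes prostaglandin D2, rose 1.95-fold. In the 16 that were well above background on all 8 arrays, sizes ran from 0.51 to 1.19 on the log2 scale. In all 18 the 4 mice of one diet lay beyond the 4 of the other. Such non-overlap occurred in 5.80% of all genes (2.26% higher and 3.54% lower on the high-fat diet), and an unadjusted p under 0.05 in 2107 (9.17%). The p-values rest on the spread between single mice within groups, pooled over all 24 arrays and 6 groups. With the spread taken from the 8 arrays compared alone, 0 genes passed in limma.

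The count rested on the arrays and on the model. Leaving out 1 array left 2 to 14 calls, with 2 without high-fat mouse 3 and 2 without chow mouse 3, and 14 without high-fat mouse 4. Without both high-fat mouse 3 and chow mouse 1, the arrays of highest and lowest acinar mean (a choice made after seeing the data), no gene passed in limma, and 1824 had an unadjusted p under 0.05. Fitting the acinar mean of each array as a term left 0 calls as well, with 1668 genes under an unadjusted p of 0.05. The differences themselves were then -0.89 for Emid1, 0.95 for Hpgds and -0.58 for Hdac8, against -0.91, 0.96 and -0.58 without the term. After normexp background correction and quantile normalization the difference was 0.53 for Hpgds, -0.48 for Dkk2, -0.32 for Hdac8 and -0.45 for Ak5, against 0.96, -1.19, -0.58 and -0.93 as reported here. Other measures of acinar RNA were not tested.

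**Figure D1:**
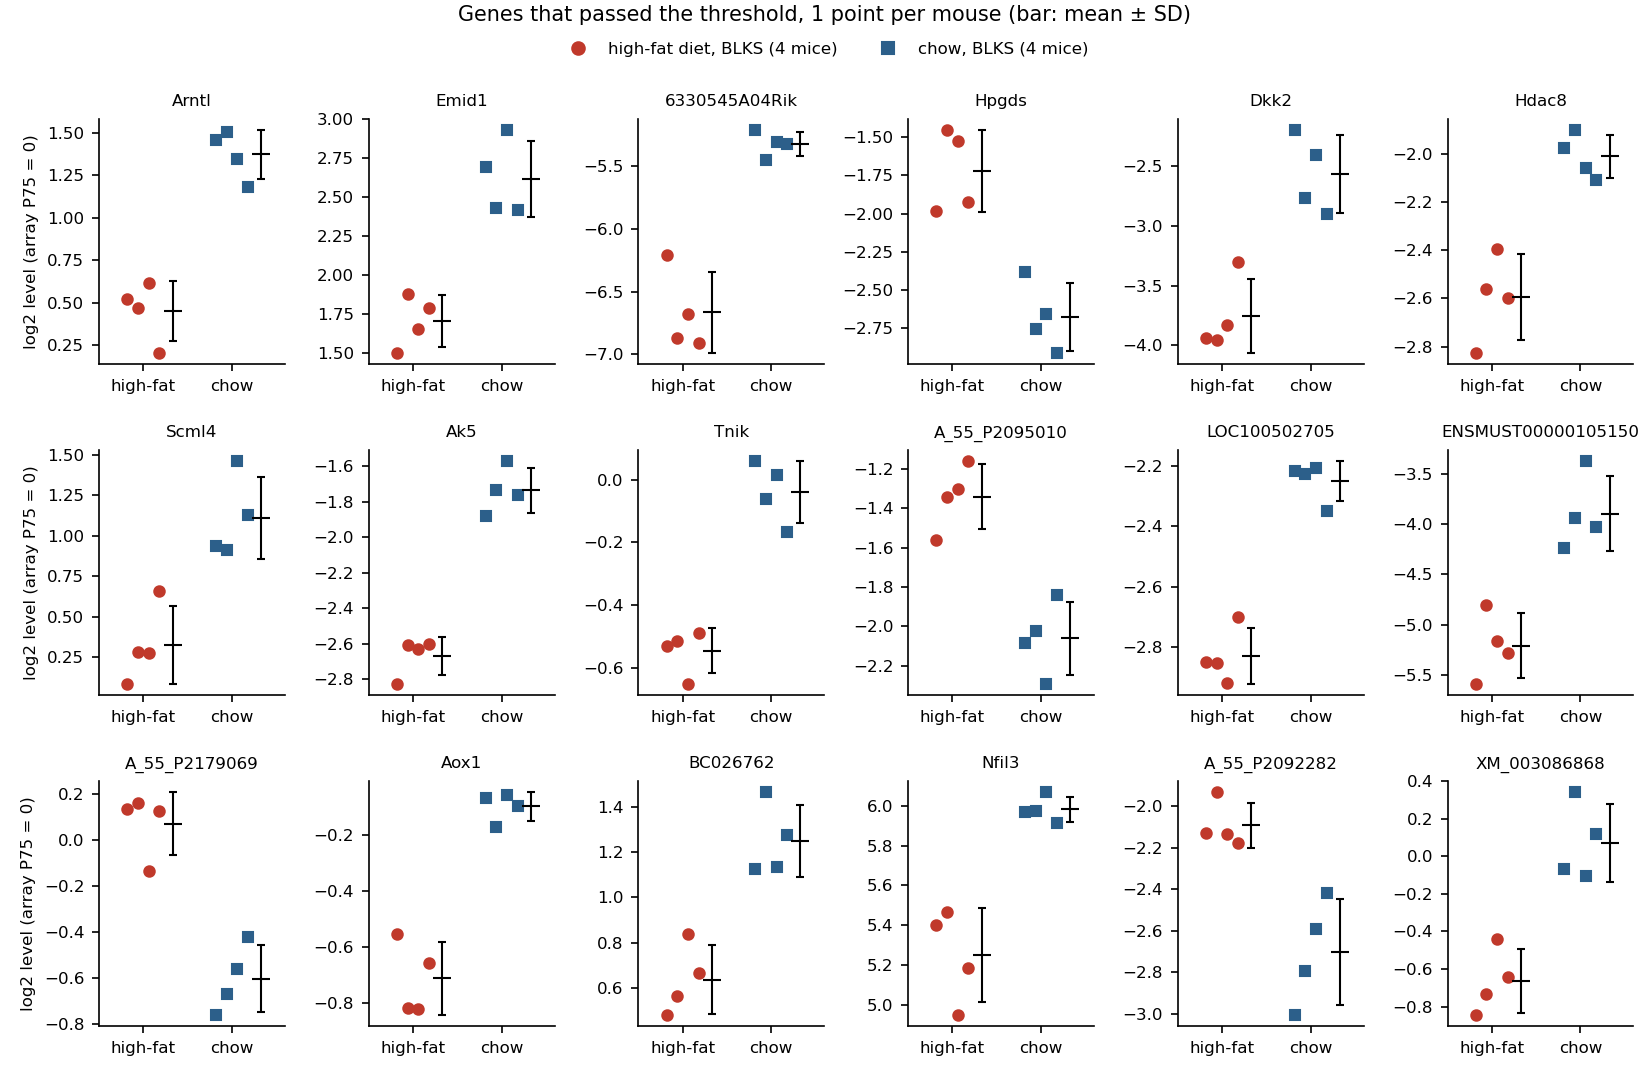
Level of each of the 18 genes that passed the threshold, 1 panel per gene in order of p, with 4 high-fat BLKS mice (red circles) left of 4 chow BLKS mice (blue squares) and the mean ± SD beside each group. The vertical axis is log2 intensity relative to the array's 75th percentile and differs between panels. In every panel the groups do not overlap; Arntl lies between 0.20 and 0.62 on the high-fat diet and between 1.18 and 1.51 on chow.

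Arntl encodes the partner of CLOCK in the activating arm of the clock. Its level was 0.52, 0.47, 0.62 and 0.20 in high-fat mice 1 to 4, against 1.46, 1.51, 1.35 and 1.18 in chow mice 1 to 4. The 4 high-fat mice were close together and all below the lowest chow mouse. The difference was -0.92 ± 0.13 (SE, n = 4 mice per group; limma adjusted p = 0.011). It kept its call without any 1 of the 8 arrays, at an adjusted p of at most 0.047. Those fits took the spread from all 6 groups. Over the 8 arrays compared alone the limma adjusted p was 0.19, and over the 12 BLKS arrays 0.055, so the call was lost. The adjusted p was 0.067 (difference -0.90) when the acinar mean was fitted as a term, and 0.1 (difference -0.95) without high-fat mouse 3 and chow mouse 1. In the other groups Arntl averaged 0.60 ± 0.18 in BLKS islets on the diet with pioglitazone, 0.66 ± 0.19 in high-fat BL6 islets and 1.10 ± 0.05 in chow BL6 islets (SD, n = 4 each). The pioglitazone mice spanned 0.42 to 0.80 and overlapped the high-fat BLKS mice.

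Nfil3 encodes a bZIP repressor that competes with DBP, TEF and HLF for D-box elements, and its transcription is known to be under ROR and REV-ERB control, as is that of Arntl. Nfil3 stood at 5.40, 5.47, 4.95 and 5.19 in high-fat islets, against 5.97, 5.98, 6.07 and 5.91 in chow islets. The chow mice were tightly grouped and all 4 high-fat mice lay below them. The difference was -0.73 ± 0.14 (adjusted p = 0.04). The call was lost without any 1 of the 8 arrays, at an adjusted p of up to 0.14, while the difference stayed between -0.80 and -0.63. In BL6 islets Nfil3 averaged 2.96 ± 0.23 on the high-fat diet and 3.48 ± 0.11 on chow (SD, n = 4 each).

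The probe that measured Arntl lies on mm9 at chr7:120457261-120457320. RefSeq promoter windows of 300 bases around annotated starts (GRCm38.p6) were searched on both strands for AGGTCA, the half-site bound by ROR and REV-ERB receptors, because these receptors are known regulators of both genes. The half-site was found in 1 of the 2 Arntl windows, 31 bases after the start, and in the Nfil3 window, 12 bases before the start. The stretches that hold it are at chr7:113207530-113207559 (plus strand) and chr13:52981034-52981063 (minus strand). They are shown 5′ to 3′ with the half-site, or its reverse complement for Nfil3, in capitals, after the Arntl probe.
Arntl probe: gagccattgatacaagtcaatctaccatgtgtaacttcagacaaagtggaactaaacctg
Arntl promoter: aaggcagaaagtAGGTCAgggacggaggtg
Nfil3 promoter: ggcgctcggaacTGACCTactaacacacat
AGGTCA occurred in 16.3% of all 32851 windows, so a match in both is a description of the sequence and shows no binding. Of the 18 genes that passed, 7 had a window, and 2 held AGGTCA, 0 the E-box CACGTG (7.15% of all windows) and 1, Hpgds, the D-box TTATGNAA (3.38% of all windows).

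The other clock genes did not follow Arntl and Nfil3 past the threshold. All 28 listed clock genes were measured. Of them 2 fell, both named above, and 0 rose. At an unadjusted p under 0.05 there were 7 lower and 1 higher, where 5.77% and 3.40% of all genes were. The median difference over the list was -0.03, against -0.02 over all genes. Among partners and paralogs of Arntl, Clock differed by -0.07 ± 0.14, Npas2 by -0.59 ± 0.48 (well above background on 2 high-fat and 4 chow arrays) and Arntl2 by 0.30 ± 0.15.

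The repressors that ARNTL and CLOCK drive showed no common direction. Per1 differed by 0.22 ± 0.14, Per2 by 0.00 ± 0.18 and Cry1 by 0.09 ± 0.21. Per3 was at -3.30, -3.42, -2.96 and -2.44 in high-fat islets, against -3.58, -4.42, -3.40 and -3.61 in chow islets. High-fat mouse 2 lay just below chow mouse 3, so the groups overlapped, and the difference of 0.72 ± 0.31 did not pass (adjusted p = 0.47). Cry2 was lower by 0.32 (-0.32 ± 0.15, adjusted p = 0.52), with no overlap. A 2nd Cry2 probe went the other way, at 0.12 with overlap.

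The receptors that act on the Arntl promoter were measured as well. Rora, an activator, differed by -0.26 ± 0.11 (adjusted p = 0.5), while a 2nd Rora probe differed by 0.05 with overlap. Nr1d1, which encodes the repressor REV-ERB-alpha, was at 3.92, 4.28, 3.64 and 4.41 in high-fat islets, against 4.81, 4.52, 4.77 and 4.48 in chow islets. The groups did not overlap, and the difference of -0.58 ± 0.32 had an adjusted p of 0.62. Its paralog Nr1d2 differed by -0.10 ± 0.18.

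Among clock outputs, the PAR bZIP genes Dbp, Tef and Hlf differed by 0.02 ± 0.30, 0.22 ± 0.17 and 0.34 ± 0.21. Usp2, a deubiquitinase with rhythmic expression in many tissues, was at 0.69, 0.46, 0.83 and 1.14 in high-fat islets, against 1.29, 1.27, 1.68 and 1.60 in chow islets. No high-fat mouse reached the lowest chow mouse, and the difference of -0.68 ± 0.16 had an adjusted p of 0.13. The kinases Csnk1d and Csnk1e, which phosphorylate PER proteins, differed by -0.01 ± 0.10 and -0.03 ± 0.11.

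**Figure D2:**
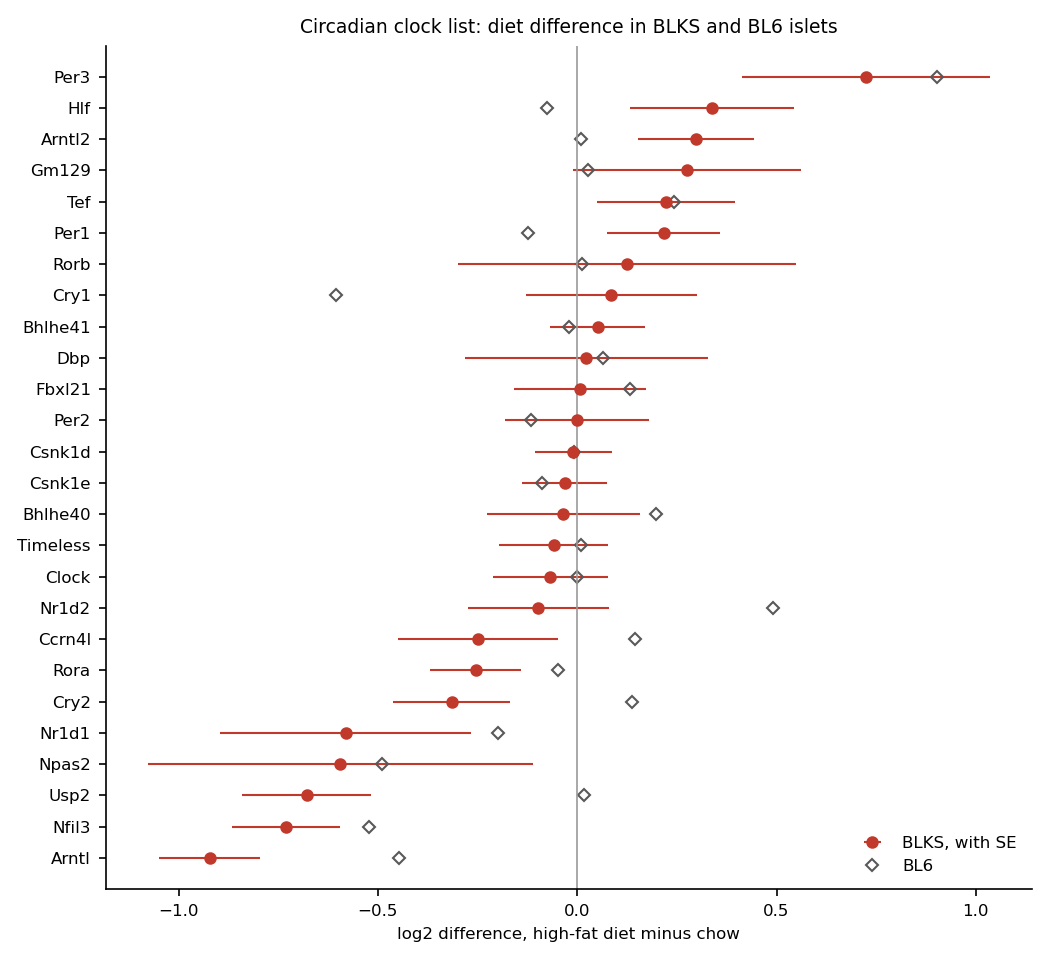
Log2 difference, high-fat diet minus chow, of 26 of the 28 circadian clock genes in BLKS islets (filled red circles with SE, 4 against 4 mice) and in BL6 islets (open grey diamonds, no error drawn), ordered by the BLKS difference. Arntl at -0.92 and Nfil3 at -0.73 are at the low end and are the 2 that passed; Per3 at 0.72 is at the high end and did not pass.

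Of the called genes outside the clock list, Emid1, which encodes a secreted protein with an EMI domain, had the next lowest p. Its level was 1.50, 1.88, 1.65 and 1.79 in high-fat islets, against 2.69, 2.43, 2.93 and 2.41 in chow islets. The groups were separated by more than the range within either diet, and the difference was -0.91 ± 0.13 (adjusted p = 0.012). The call was lost without high-fat mouse 3 (adjusted p = 0.053) and without chow mouse 3 (0.055). A 2nd Emid1 probe differed by -0.65 with no overlap. In BL6 islets Emid1 averaged 2.75 ± 0.18 on the high-fat diet and 3.01 ± 0.11 on chow (SD, n = 4 each).

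Hpgds, the haematopoietic prostaglandin D synthase, is known from mast cells and other immune cells. It was at -1.98, -1.45, -1.52 and -1.93 in high-fat islets, against -2.39, -2.76, -2.66 and -2.92 in chow islets. Every high-fat mouse was above every chow mouse, and the difference was 0.96 ± 0.15 (adjusted p = 0.025). It kept its call without high-fat mouse 1, high-fat mouse 4 or chow mouse 1, and lost it without any 1 of the other 5 arrays, at an adjusted p of up to 0.087. In BL6 islets Hpgds averaged -1.43 ± 0.16 on the high-fat diet and -1.90 ± 0.28 on chow (SD, n = 4 each). The probe bridges chr6:65070081-65073609 on mm9, a span longer than its 60 bases, and is shown because it measures the only named gene that rose.
Hpgds probe: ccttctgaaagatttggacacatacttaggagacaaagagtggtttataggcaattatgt
The 22 measured genes of prostaglandin synthesis and response included no other call and had a median difference of 0.02. Ptgs1 and Ptgs2, the cyclooxygenases upstream of Hpgds, differed by -0.54 and 0.83 and did not pass. Of 7 measured mast cell markers Hpgds was the one that passed. Their differences ran from -0.20 to 0.96 with a median of 0.04, and 4 were above 0. Kit, the stem cell factor receptor, differed by -0.04.

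Dkk2, a secreted modulator of Wnt signalling, was at -3.94, -3.95, -3.83 and -3.30 in high-fat islets, against -2.20, -2.77, -2.40 and -2.90 in chow islets. The high-fat mice were all lower, and the difference was -1.19 ± 0.19 (adjusted p = 0.025). Tnik, a kinase of the Wnt pathway in intestinal cells, was at -0.53, -0.51, -0.65 and -0.49 on the high-fat diet, against 0.06, -0.06, 0.01 and -0.17 on chow. Its difference of -0.51 ± 0.09 (adjusted p = 0.033) was the smallest of the 18. Of 43 measured Wnt genes, Dkk2 was the one called, and Frzb (-0.28 ± 0.10) and Wnt5a (0.45 ± 0.20) had an unadjusted p under 0.05. Dkk2 kept its call without high-fat mouse 4, chow mouse 2 or chow mouse 4, and Tnik without chow mouse 4. Both lost it without any 1 of the other arrays, with adjusted p-values of up to 0.1 for Dkk2 and 0.12 for Tnik.

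Hdac8 and Scml4 act on chromatin, as a class I histone deacetylase and as a member of a Polycomb-related family. Hdac8 was at -2.83, -2.56, -2.39 and -2.60 in high-fat islets, against -1.98, -1.90, -2.06 and -2.11 in chow islets (-0.58 ± 0.10, adjusted p = 0.029). Scml4 was at 0.08, 0.28, 0.27 and 0.66, against 0.94, 0.91, 1.46 and 1.13 in chow islets (-0.79 ± 0.13, adjusted p = 0.033). In both genes all high-fat mice lay below all chow mice. A 2nd Hdac8 probe differed by -0.60 with no overlap, and a 2nd Scml4 probe by -0.28 with overlap. The mean of its kept probes put Scml4 at -0.53, without a call (adjusted p = 0.45). Hdac8 kept its call without high-fat mouse 3 or chow mouse 4, and Scml4 without high-fat mouse 4 or chow mouse 2. Without any 1 of the other 6 arrays the adjusted p reached up to 0.11 for Hdac8 and 0.12 for Scml4. Of the 18 measured deacetylases and sirtuins, Hdac11 was lower (-0.33 ± 0.12) and Hdac1 higher (0.20 ± 0.09) at an unadjusted p under 0.05, and neither passed.

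Ak5 and Aox1 are enzymes, an adenylate kinase known from brain and an aldehyde oxidase. Ak5 was at -2.83, -2.61, -2.63 and -2.60 in high-fat islets, against -1.88, -1.73, -1.57 and -1.76 in chow islets (-0.93 ± 0.16, adjusted p = 0.033). Aox1 was at -0.55, -0.82, -0.82 and -0.66, against -0.07, -0.17, -0.06 and -0.10 in chow islets (-0.61 ± 0.11, adjusted p = 0.04). The diets did not overlap in either gene, and either call was lost without any 1 of the 8 arrays, at an adjusted p of up to 0.12 for Ak5 and 0.13 for Aox1. Ak3, Adk and Ak1, which also handle adenine nucleotides, differed by -0.25 ± 0.08, -0.33 ± 0.11 and -0.32 ± 0.14 and did not pass. Ak4 differed by -0.46. Over the 16 measured adenylate kinase and nucleotide genes there was no common fall. Of them 10 were above 0, where 46.0% of all genes were, and the median was 0.03.

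The remaining 8 calls have clone, accession or probe names. BC026762, LOC100502705 and XM_003086868 fell, by 0.62, 0.58 and 0.74 on the log2 scale (adjusted p = 0.04, 0.033 and 0.041). ENSMUST00000105150 was well above background on 0 of 4 high-fat and 3 of 4 chow arrays and was at least 1.66-fold lower on the high-fat diet, with a measured mean of -5.21 against -3.90 on chow (adjusted p = 0.035). No array of either diet measured 6330545A04Rik well above background; it was at -6.66 ± 0.32 on the high-fat diet and -5.32 ± 0.10 on chow (SD, n = 4 each), so its adjusted p of 0.017 compares values below background and no fold is given. The other 3 are probes with no gene name in the files, and all of them rose. A_55_P2095010 (mm9 chr14:34245994-34246053) rose by 0.72 (adjusted p = 0.033). A_55_P2179069 (mm9 chr10:71261927-71261986) rose by 0.68 (adjusted p = 0.038). A_55_P2092282 (mm9 chr6:38016723-38016782) rose by 0.61 (adjusted p = 0.04). Their sequences are shown since they are their only identity here.
A_55_P2095010: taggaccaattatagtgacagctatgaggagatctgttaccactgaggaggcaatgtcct
A_55_P2179069: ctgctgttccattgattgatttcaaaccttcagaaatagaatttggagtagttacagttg
A_55_P2092282: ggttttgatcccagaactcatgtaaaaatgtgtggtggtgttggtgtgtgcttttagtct
In the fits that left out 1 of the 8 arrays, 6330545A04Rik kept its call in 4, A_55_P2095010 in 2, BC026762 and XM_003086868 in 0 and the other 4 in 1, with adjusted p-values of up to 0.17.

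Just short of the threshold, the 8 named genes of lowest p in each direction had adjusted p-values of 0.063 to 0.11, and in 15 of the 16 the diets did not overlap. The exception was Cxcl5, a chemokine that attracts neutrophils. It was at -1.80, -1.65, 0.86 and -3.97 in high-fat islets, against -4.34, -3.95, -5.02 and -4.55 in chow islets. High-fat mouse 4 fell within the chow range and high-fat mouse 3 was far above all others, and the difference was 2.83 ± 0.59 (adjusted p = 0.083). Cxcl5 was well above background on 4 high-fat arrays and 1 chow array. Without high-fat mouse 4 it was called, at 3.60 (adjusted p = 0.0034).

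Among the other genes higher by this rule were the kinase Mapk7 (0.34 ± 0.07), the keratin Krt9 (0.87 ± 0.19), the anchoring protein Akap8 (0.35 ± 0.08) and Gabpb1, a subunit of the GABP transcription factor (0.37 ± 0.08). The higher side also held Ppan and Mrto4, both factors of ribosome assembly. Genes lower by this rule included Klf7, a transcription factor that lowers insulin secretion when overexpressed in cell lines, at 3.47, 3.73, 3.43 and 3.70 in high-fat islets, against 4.23, 4.09, 4.08 and 4.07 in chow islets. Its groups did not overlap (-0.53 ± 0.11, adjusted p = 0.086). Fancc, St3gal2, Rnf182, Mxra7, Guca1a, Sept4 and Gpr146 were lower by 0.40 to 0.85 on the log2 scale, all without overlap.

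Genes of ribosome biogenesis were higher on the high-fat diet as a list, although no single member passed. The list was drawn up when it was already known that Ppan and Mrto4 led the higher genes, so its direction is no independent evidence. All 44 members were measured, 43 were above 0, where 46.0% of all genes were, and their median difference was 0.26 against -0.02 over all genes. At an unadjusted p under 0.05 there were 21 higher and 0 lower, against 3.40% and 5.77% of all genes. The list's array means were 2.07, 1.95, 2.02 and 1.75 in high-fat islets, against 1.70, 1.65, 1.64 and 1.77 in chow islets. High-fat mouse 4 lay just below chow mouse 4, and the other 3 mice of each diet were apart.

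Ppan, needed for the large ribosomal subunit, was at 4.11, 4.00, 4.06 and 3.74 in high-fat islets, against 3.57, 3.46, 3.41 and 3.66 in chow islets. High-fat mouse 4 was the lowest of its group and chow mouse 4 the highest of its own, without overlap (0.45 ± 0.10, adjusted p = 0.099). Without high-fat mouse 4 it was called, at 0.53 (adjusted p = 0.036). Mrto4, which helps to build the ribosomal stalk, was at 1.62, 1.56, 1.61 and 1.38, against 1.21, 1.18, 1.21 and 1.18 in chow islets (0.35 ± 0.08, adjusted p = 0.099). After normexp background correction and quantile normalization Ppan (adjusted p = 0.012) and Mrto4 (adjusted p = 0.016) were called. Dkc1, which modifies ribosomal RNA, and Nolc1, a nucleolar chaperone, were higher by 0.40 ± 0.10 and 0.43 ± 0.12 (adjusted p = 0.13 and 0.18). Without high-fat mouse 3 and chow mouse 1 the list's median was 0.22, with 41 of 44 members above 0 and 16 under an unadjusted p of 0.05. The number under an unadjusted p of 0.05 was 13 without high-fat mouse 1. In BL6 islets the list's median was -0.02 and 19 of 44 members were above 0. The strain by diet term had an unadjusted p under 0.05 in 15 members, against 8.44% of all genes, and an adjusted p under 0.05 in 0.

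**Figure D3:**
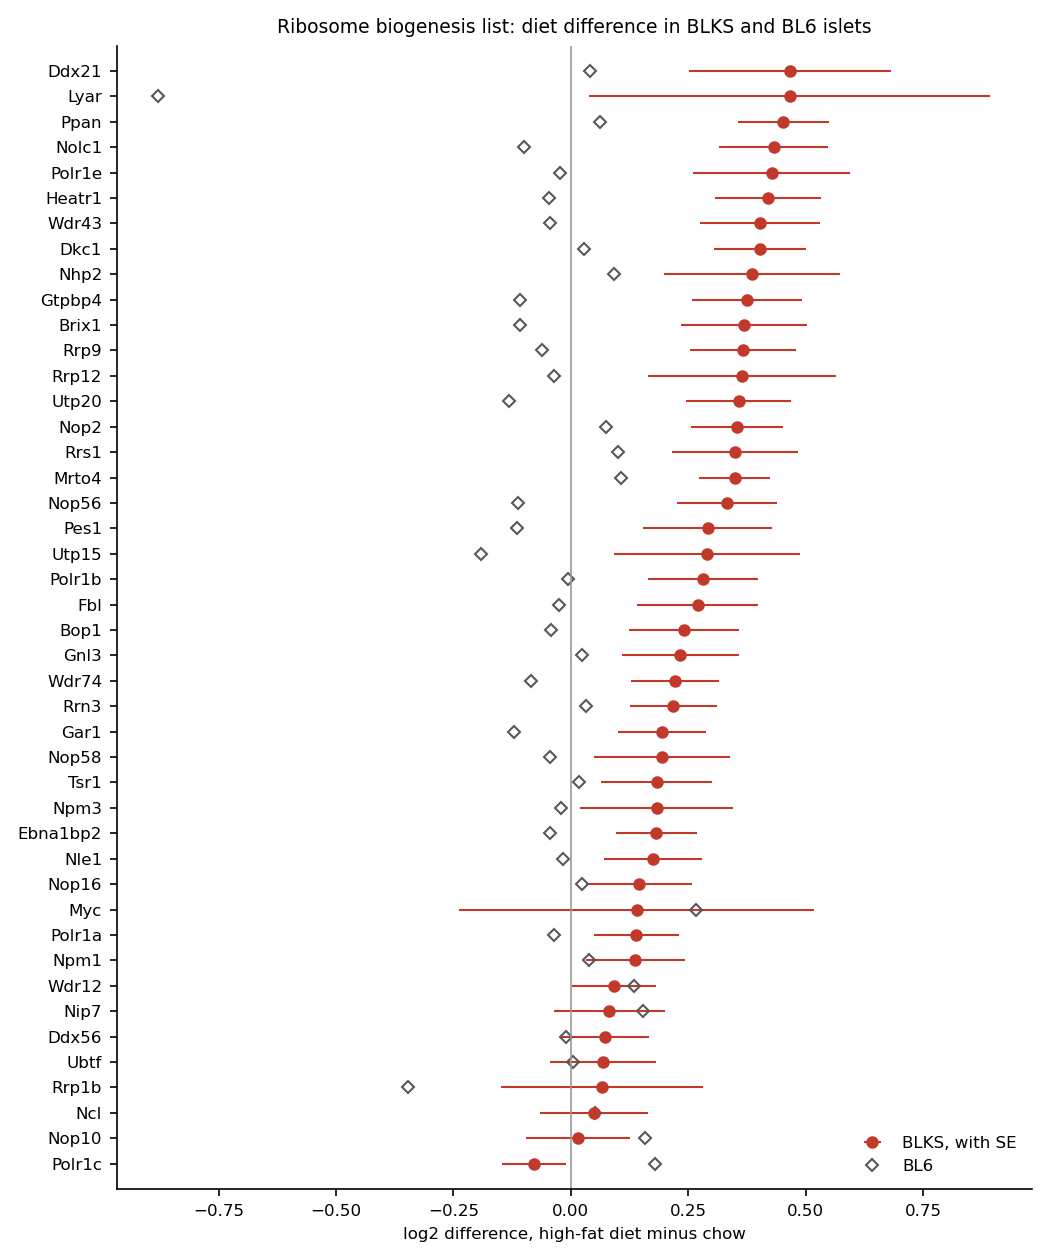
Log2 difference, high-fat diet minus chow, of the 44 ribosome biogenesis genes in BLKS islets (filled red circles with SE, 4 against 4 mice) and in BL6 islets (open grey diamonds, no error drawn), ordered by the BLKS difference. In BLKS islets 43 of 44 lie above 0; in BL6 islets 19 do.

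No beta cell identity gene passed, and most had a small negative difference. The hormone genes did not pass either, at -0.03 ± 0.16 for Ins1, -0.08 ± 0.15 for Ins2, -0.10 ± 0.14 for Gcg, -0.05 ± 0.14 for Sst and -0.50 ± 0.46 for Ppy. Among 33 beta cell identity genes, 4 were above 0, the median was -0.13, and 5 had an unadjusted p under 0.05, all lower. Over all genes, 46.0% were above 0, the median was -0.02 and 5.77% were lower at that p. Nkx6-1, a transcription factor that keeps beta cell identity, was at 4.91, 5.10, 4.75 and 5.16 in high-fat islets, against 5.48, 5.25, 5.48 and 5.22 in chow islets. The groups were close but did not overlap (-0.38 ± 0.11, adjusted p = 0.23). Prlr, the prolactin receptor, differed by -0.43 ± 0.14, Slc2a2, the glucose transporter GLUT2, by -0.28 ± 0.13 and Ucn3, a mark of mature beta cells, by -0.29 ± 0.13. The factors Pdx1 and Mafa differed by 0.09 ± 0.13 and -0.06 ± 0.11.

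The beta cell values moved with the arrays that stood apart. Without high-fat mouse 3 and chow mouse 1 the list's median was -0.01, with 13 of 33 members above 0 and 1 under an unadjusted p of 0.05. Without high-fat mouse 3 alone it was -0.06. Nnt, the mitochondrial transhydrogenase gene, differed by -0.20 ± 0.12 (adjusted p = 0.65), and it was measured at 3.48 or above on all 8 arrays.

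Of 41 genes of the unfolded protein response and of ER folding, 0 passed, 7 were above 0 (46.0% of all genes were), and the median was -0.13. At an unadjusted p under 0.05, 5 were lower and 0 higher, against 5.77% and 3.40% of all genes. Herpud1, which serves ER-associated degradation, was at 6.63, 6.84, 6.81 and 6.81 in high-fat islets, against 7.26, 7.21, 7.08 and 7.04 in chow islets. All high-fat mice were lower (-0.37 ± 0.11, adjusted p = 0.21). Ddit3, which encodes the stress factor CHOP, differed by -0.49 ± 0.16 (adjusted p = 0.29), and Fkbp2 and Sdf2l1 by -0.37 ± 0.11 and -0.38 ± 0.14. Without high-fat mouse 3 and chow mouse 1 the median of this list was -0.04, with 15 of 41 members above 0. Glucose sensing and granule exocytosis genes had medians of -0.08 (33 genes) and -0.10 (38 genes), and the exocytosis median was 0.02 without those arrays.

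Of 27 cholesterol synthesis and uptake genes, 21 were above 0, and the median was 0.10. Acat2, an acetyl-CoA acetyltransferase, was at -1.47, -1.38, -1.65 and -1.43 in high-fat islets, against -1.69, -1.96, -2.0 and -1.85 in chow islets. The high-fat mice were all above the chow mice (0.39 ± 0.10, adjusted p = 0.13). Dhcr7, Nsdhl and Lss, all enzymes of the sterol pathway, were higher by 0.37 ± 0.12, 0.30 ± 0.11 and 0.27 ± 0.12, with adjusted p-values of 0.28 to 0.51. The list's median was 0.21 without high-fat mouse 3 and chow mouse 1, and 0.03 without high-fat mouse 1. Fatty acid synthesis genes had a median of 0.06 (31 genes) and fatty acid oxidation genes of -0.03 (32 genes), and Lpl, lipoprotein lipase, was lower by 0.58 (-0.58 ± 0.14, adjusted p = 0.13) without overlap.

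Inflammatory genes were led by 1 mouse. The 37 cytokine and chemokine genes had a median of 0.22. At an unadjusted p under 0.05, 4 were higher and 0 lower, against 3.40% and 5.77% of all genes. The list's mean was 0.79 in high-fat mouse 3, against -0.41 to -0.30 in the other 3 high-fat mice and -0.91 to -0.05 in chow mice. Il6 was at 1.28, 0.61, 2.31 and 0.59 in high-fat islets, against 0.04, 0.48, -0.28 and 0.49 in chow islets, without overlap (1.02 ± 0.37, adjusted p = 0.37). Ccl2, which attracts monocytes, was at 3.17, 1.88, 4.31 and 1.19, against 1.06, 1.32, -0.14 and 1.81 in chow islets, and overlapped. Without high-fat mouse 3 the median of the list was 0.01. The 35 interferon response genes had a median of 0.15, between 0.10 and 0.18 without any 1 array. At an unadjusted p under 0.05, 3 were higher, where 3.40% of all genes were. These were the RNA sensors Ifih1 (0.32 ± 0.11) and Ddx58 (0.31 ± 0.13) and the interferon-induced Oasl2 (0.62 ± 0.29). Each had no overlap of the diets and an adjusted p of 0.35 to 0.52. Of all genes, 2.26% were higher without overlap.

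Of 30 immediate early genes 7 were above 0, and their median difference was -0.16. Fosb, an AP-1 subunit, was at 4.52, 4.59, 5.12 and 5.36 in high-fat islets, against 5.80, 5.75, 6.32 and 5.70 in chow islets. The diets did not overlap (-1.0 ± 0.23, adjusted p = 0.11). Arc and Jun differed by -0.85 ± 0.28 and -0.62 ± 0.27, also without overlap, and did not pass. These genes answer within minutes to stimulation and to handling of tissue. The list's median was -0.22 without high-fat mouse 3 and chow mouse 1, and -0.16 in BL6 islets.

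Among markers of other cells, the 31 acinar genes had a median difference of 2.67, the highest of the 36 lists, with 29 above 0 and 0 under an unadjusted p of 0.05. That median was 0.79 without chow mouse 1, 3.92 without chow mouse 2 and 0.18 without high-fat mouse 3 and chow mouse 1 together. The lymphocyte median was 0.19 over 25 genes, and -0.96 without high-fat mouse 3. Cell cycle genes had a median of 0.14 over 43 genes, and -0.18 without high-fat mouse 3, in which Mki67, a mark of dividing cells, was at 1.86, against -2.01 to -1.13 in the other high-fat mice and -1.55 to -0.38 in chow mice. Endothelial markers had a median of -0.14 (22 genes) and macrophage markers of 0.00 (25 genes), although C1qa was lower by 0.52 (-0.52 ± 0.15, adjusted p = 0.21) without overlap. The endothelial median was -0.05 without chow mouse 1.

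The remaining lists had medians from -0.16 to 0.13. Alpha cell genes (11) had a median of -0.04, delta and PP cell genes (12) of -0.01, oxidative phosphorylation genes (38) of -0.02 and hypoxia and glycolysis genes (30) of 0.01. Among them Pyy, a peptide YY hormone gene, was at 7.56, 7.91, 7.12 and 7.53 in high-fat islets, against 8.78, 8.11, 8.04 and 7.72 in chow islets, with overlap (-0.63 ± 0.29, adjusted p = 0.51). Insulin and IGF signalling genes (33) had a median of -0.06, with Irs2, an insulin receptor substrate, at -0.44 ± 0.17, and apoptosis genes (31) one of -0.05. Bid, a BH3-only activator of apoptosis, was at 0.06, -0.31, 0.44 and -0.18 in high-fat islets, against -0.91, -0.76, -0.61 and -0.80 in chow islets. The diets did not overlap in Bid (0.77 ± 0.26, adjusted p = 0.29).

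Antioxidant genes (34) had a median of -0.04, histone deacetylases and sirtuins (18) of -0.05, adenylate kinase and nucleotide genes (16) of 0.03 and integrated stress response genes (27) of -0.04. Disallowed and dedifferentiation genes (21) had a median of 0.06, ductal markers (15) of 0.03, stellate and fibroblast markers (22) of -0.03, and adipocyte markers (7) of 0.13. Schwann cell markers (12) had a median of -0.16, which was 0.02 without chow mouse 1, and the stellate median was 0.22 without it. Of the 6 measured neutrophil markers, whose median was 0.06, S100a9 was at -2.22, -2.74, -6.97 and -3.82 in high-fat islets, against -6.36, -6.85, -6.43 and -6.73 in chow islets. It was well above background on 3 high-fat and 0 chow arrays, and high-fat mouse 3 was as low as the chow mice. With all 4 high-fat mice taken as measured, their mean of S100a9 was at least 1.62-fold above chow. High-fat mouse 3 did not share this, so the bound describes a mean carried by the other 3 high-fat mice. The measured mean was -3.94 against -6.59 on chow, and S100a9 did not pass (adjusted p = 0.47). Over the 36 lists, 17 medians were above 0 and 22 lay within 0.1 of 0, and the lowest was -0.16.

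**Figure D4:**
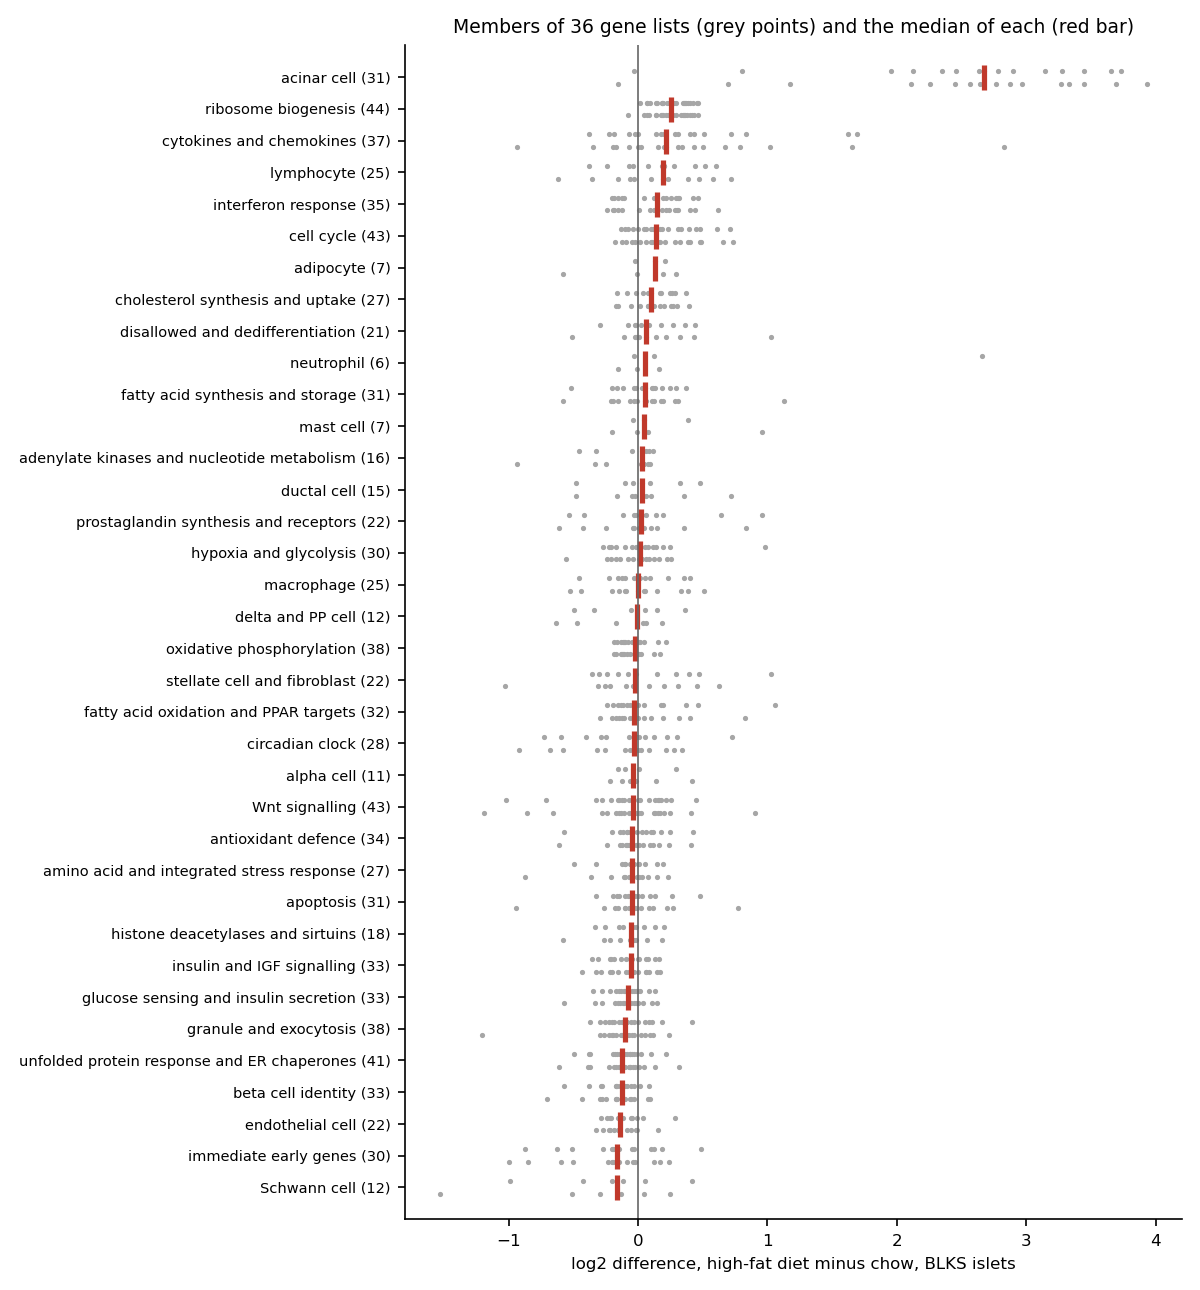
Log2 difference, high-fat diet minus chow, of every measured member of the 36 gene lists in BLKS islets (grey points, number of genes in brackets) and the median of each list (red bar), ordered by median. The acinar list, with a median of 2.67, stands apart at the top; ribosome biogenesis follows at 0.26 with its members close together.

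**Figure D5:**
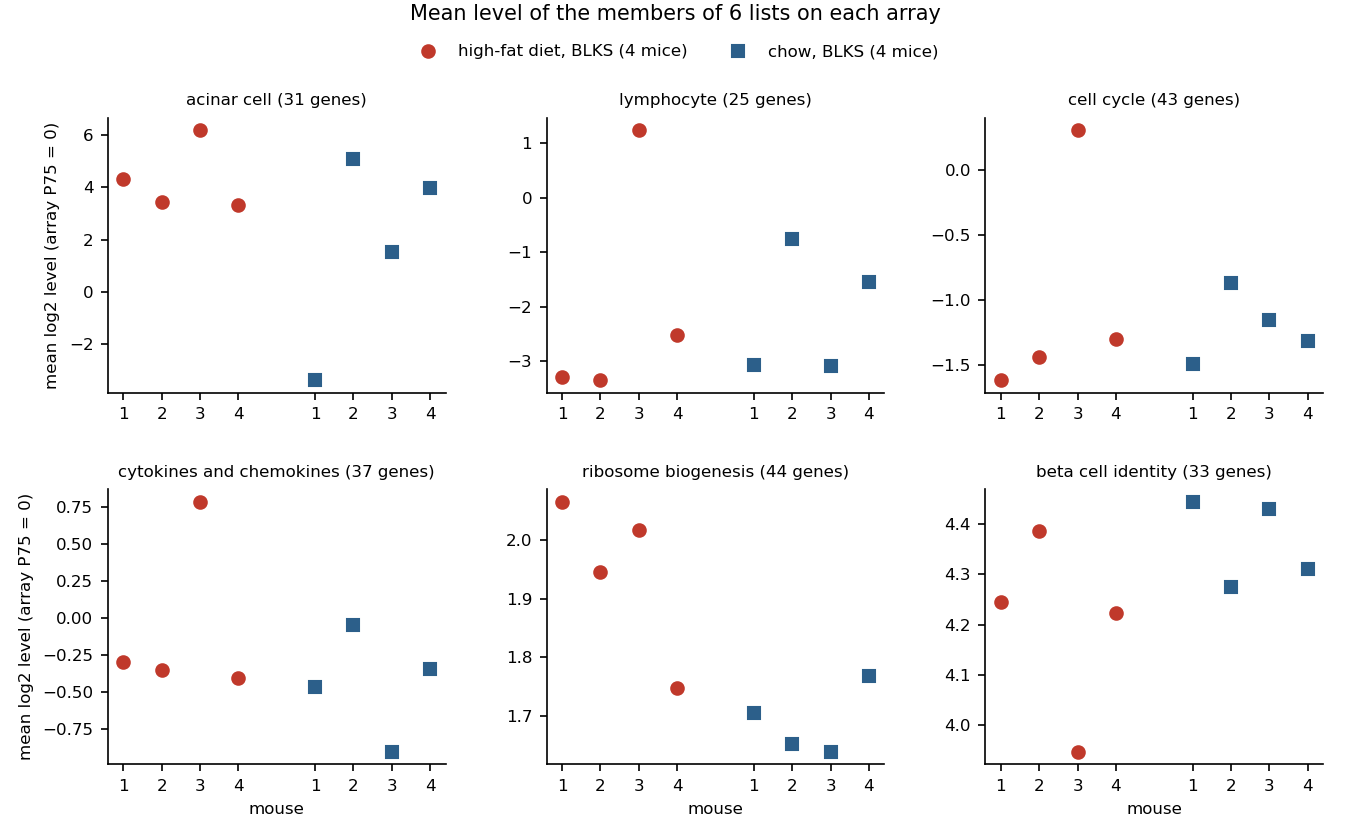
Mean log2 level, relative to the array's 75th percentile, of the members of 6 lists on each array, with high-fat BLKS mice 1 to 4 (red circles) left of chow BLKS mice 1 to 4 (blue squares). Chow mouse 1 is lowest in acinar markers at -3.37, high-fat mouse 3 is highest in lymphocyte, cell cycle and cytokine genes, and in ribosome biogenesis 3 of the 4 high-fat mice lie above all chow mice.

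The diet response of BLKS islets was set against that of BL6 islets in the same fit. Both BL6 diets lay on the same slide, whereas no slide held both BLKS diets. Slide therefore enters the BLKS response and not the BL6 response, so their counts and the strain term compare unlike designs. In BL6, 10 genes passed (0.0435%), 5.46% had an unadjusted p under 0.05 and in 4.86% the diets did not overlap. None of the 18 BLKS calls was among the 10. The test of the difference between the strains' responses called 0 genes in limma, while 1938 (8.44%) had an unadjusted p under 0.05. So no gene was shown to respond differently in BLKS and BL6 islets. Of the 18 BLKS calls, 10 had the same sign in BL6 and 5 an unadjusted BL6 p under 0.05. In BL6 islets Nfil3 differed by -0.52 (adjusted p = 0.28), Arntl by -0.45 (adjusted p = 0.39) and Hpgds by 0.47 (adjusted p = 0.54), and none passed. The difference between the strains' responses was -0.21 ± 0.20 for Nfil3, -0.47 ± 0.18 for Arntl and 0.49 ± 0.23 for Hpgds, with adjusted p-values of 0.8, 0.44 and 0.54.

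The other calls were further from BL6. Hdac8, Scml4 and Tnik differed by -0.58, -0.79 and -0.51 in BLKS islets, against 0.02, 0.01 and 0.12 in BL6 islets. A_55_P2092282 had the lowest adjusted p of the strain term among the 18, at 0.079, with 0.61 in BLKS islets and -0.35 in BL6 islets. These genes were picked by their BLKS difference, so the contrast with BL6 is a description. In BLKS islets on the diet with pioglitazone, Emid1 averaged 1.82 ± 0.15, Dkk2 -3.14 ± 0.19, Hpgds -1.94 ± 0.06, Nfil3 5.44 ± 0.12 and Ak5 -2.06 ± 0.13 (SD, n = 4 each). Each of these 5 levels lay between the high-fat and the chow mean of its gene. Since those 2 means were picked for lying far apart, this too is a description. It is not read as an effect of pioglitazone.

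The genes whose levels followed Arntl most closely from mouse to mouse were found by their deviations from group means over all 24 arrays. D030056L22Rik had the highest Pearson r, 0.824, followed by Gm13178 (0.801), Gdi2 (0.787) and Rpl7 (0.783), and the 8th, Mtpn, had 0.75. Deviations on an array share its labelling and scaling. None of the 8 differed between the diets as Arntl did, with differences from -0.16 to 0.10.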

How the data were processed

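RNA of islets from 24 male mice, 4 in each of 6 groups, was hybridised as Cy3-labelled cRNA to single-colour Agilent arrays, 1 mouse per array. The deposited scanner files hold processed spot intensities, background-subtracted by Agilent Feature Extraction 10.7.3.1 per the file headers. The deposited value table, used as an alternative, holds the ratio of each processed signal to its array's median, as set against the scanner values, so its direction and centring are known. All 24 of its columns were mapped and 0 were left unmapped.

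Each array's log2 processed signal was reduced by its 75th percentile over non-control spots. Each array held 62976 spots, of which 59305 were non-control spots of 55681 probes, and spots of one probe were averaged. Outlier-flagged spots were left out, which lost 55 probes, and 0 spots were saturated. Probes had to be well above background on 4 or more of the 24 arrays (32750 probes), and a gene name was represented by its brightest such probe (22968 genes). Gene names are those of the array files, and an mm9 annotation of exons and UTRs was not used here. The processed files give no read depth; the number of arrays limits the precision.

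Differences were estimated with limma 3.58.1 in R 4.3.3 (lmFit and eBayes) as contrasts of 6 group means over all 24 arrays, and every adjusted p in the text is from this limma fit unless an alternative is named, with Benjamini-Hochberg adjustment over all 22968 genes and a threshold of 0.05. The steps were tested on simulated data. Alternatives changed the background correction, normalization, filter, probe rule, value table, arrays in the fit, variance model, slide, mouse number and marker covariates, and left out arrays.

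Named genes are all calls, the 8 named genes of lowest p per direction among the rest, all clock genes, up to 4 members of lowest p of each other list, hormone and beta cell genes, and the 8 genes most like Arntl. Kit and Ak4 fall outside this rule and were added after their values were seen. Single genes of the lists and counts are not reported by name here. The groups, the 36 gene lists and the rules were chosen with earlier results of these data known.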

Additional observations from a re-analysis of the deposited data

Results flagged for a closer look

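In 314 tests of single genes and list means within the 4 mice of one diet, 19 (6.05%) had a mouse whose gap to the nearest other was above Dixon's 95% critical value for 4 samples, as a share of their whole range. Chance alone gives about 1 in 20.

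High-fat mouse 3 accounted for the most. It was the highest of the high-fat mice in the mean of cytokine genes at 0.7894, of cell cycle genes at 0.3111, of hypoxia and glycolysis genes at 2.827 and of disallowed genes at 0.2394, and the lowest in that of unfolded protein response genes at 4.313. It was also the highest for the clock repressor Bhlhe40 at 2.926 and for Timeless at 0.404, and the lowest for A_55_P2179069 at -0.133. High-fat mouse 1 was the lowest for Ak5 at -2.826, Ak3 at 1.332, Hdac11 at -0.4275 and Herpud1 at 6.629, and high-fat mouse 2 the highest for St3gal2 at 0.0654.

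Among chow mice, mouse 1, the one low in acinar markers, was the highest for Klf7 at 4.228, for Mxra7 at 0.6788 and in the mean of antioxidant genes at 2.977. Chow mouse 3 was the highest for Fosb at 6.323 and in the mean of glucose sensing genes at 2.108. Chow mouse 4 was the lowest for LOC100502705 at -2.349.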

How the results depend on the processing

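The count of 18 called genes moved with the processing. It was 66 after normexp background correction and quantile normalization (12 of the 18 among them), 34 with the lymphocyte mean as a term (all 18 among them), 6 without the filter on dim probes and 5 from the authors' value table. It was 1 over the 12 BLKS arrays (2470 genes at an unadjusted p under 0.05) and 0 over the 8 arrays compared (2030), with the acinar mean as a term (1668), or without the arrays of lowest and highest acinar mean (1824). Leaving out 1 array gave 2 to 14. The share of calls that were higher on the high-fat diet was 22.2%, against 34.8% with normexp and 40.9% with quantile normalization alone.

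Mouse number as a replicate block gave 8 calls, 7 of them among the 18. Deviations of mice of the same number correlated at 0.10, -0.43, -0.44 and 0.01, and no high-fat mouse correlated best with the chow mouse of its own number, so the numbers pair no mice. With slide as a random block, 18 genes were called. The fitted slide correlation was -0.0124, so this fit was close to the main one. Since no slide held both BLKS diets, it cannot separate diet from slide.

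The difference between strains called 0 genes, against 11 with normexp, 2 with quantile normalization, 4 with the block, 4 over the 16 arrays compared and 0 to 1 without 1 array (1 without chow mouse 4). No called gene changed sign in any alternative run, and of 412 values 178 kept the call. With normexp, A_55_P2095010 was at 0.45, A_55_P2092282 at 0.25, LOC100502705 at -0.21, ENSMUST00000105150 at -0.31 and 6330545A04Rik at -0.09, each moved by over 1.5 times. The causes of the moved counts were not tested. The separate slides of the BLKS diets and the 4 mice per group limit all of these values.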
